A study of Mus musculus with 4 samples.

Results

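The wild-type prostate pool was 1 RNA pool of 3 wild-type mice that was hybridised in the green (Cy3) channel of all 4 arrays of the series, so its transcriptome was read 4 times. Each array was a 2-colour Agilent mouse oligonucleotide array with 41174 different 60-base probes that were not controls. A probe was taken as measured in the pool when the scanner software called it well above background in green on all 4 arrays, a rule met by 21671 of the 41174 probes (52.6%). In genes, 12835 of 19512 with a current RefSeq name had such a probe (65.8%), 5703 had no probe called on any array (29.2%), and the rest were called on 1 to 3 arrays. No genotype was compared, and nothing below was tested against another group.

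The red (Cy5) channel carried 1 other mouse per array: 2 mice of genotype Rb1R654W/F:Trp53F/F:PB-cre4, called mutant mouse 1 and mutant mouse 2 here, and 2 of genotype Rb1F/F:Trp53F/F:PB-Cre4, called null mouse 1 and null mouse 2. In both genotypes Trp53 is floxed and Cre recombinase is driven by a probasin promoter, which is active in prostate epithelium. The labels give those test mice an age of 60 days and a strain written as mixed C57BL/6:129/SVJae:FVB. For the pool they give only the tissue, prostate, and the number of wild-type mice, so its age, strain and prostate lobes are not given in the sources used here. The 4 readings of the pool are therefore technical: their spread shows how well the arrays repeat a measurement of the same RNA and says nothing about differences between mice. Whether the pool was labelled once or separately for each array is not stated either. Readings are given below in the order of the mouse that shared the array, mutant mouse 1, mutant mouse 2, null mouse 1 and null mouse 2.

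The mouse prostate is a male accessory gland of branched ducts. Luminal epithelial cells secrete proteins, polyamines and citrate into the seminal fluid under the control of androgens, basal cells lie beneath them, and a sheath of smooth muscle and fibroblasts surrounds the ducts. Its secretory products differ from lobe to lobe, with probasin and the transglutaminase of the copulatory plug among the best known. The seminal vesicles, which lie against the prostate, make the Svs proteins that clot in the plug.

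Secretory proteins of the prostate and of the seminal vesicle were the genes by which the tissue label was checked: probasin (Pbsn, gene 54192), the beta-microseminoprotein Msmb (gene 17695) and the seminal vesicle proteins Svs2 (gene 53878), Svs4 (gene 20941) and Svs5 (gene 20944). Each was represented by 1 probe, and the sequences of these probes are shown because every value for these genes is the brightness of that stretch alone. Each stretch could be read in at least 1 frame without a stop codon. The files place them in mouse build mm7 at chrX:73231673-73231732 (Pbsn, minus strand), chr14:29579819-29579878 (Msmb, plus), chr2:163978677-163978736 (Svs2, minus), chr2:164017992-164018051 (Svs4, minus) and chr2:164075133-164075192 (Svs5, plus). The exon that holds each stretch was not looked up, because no annotation of that build was used here.
Pbsn probe: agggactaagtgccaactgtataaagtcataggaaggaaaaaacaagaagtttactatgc
Msmb probe: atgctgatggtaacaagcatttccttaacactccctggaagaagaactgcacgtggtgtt
Svs2 probe: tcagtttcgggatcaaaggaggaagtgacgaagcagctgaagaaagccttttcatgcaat
Svs4 probe: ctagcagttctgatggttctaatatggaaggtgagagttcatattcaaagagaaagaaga
Svs5 probe: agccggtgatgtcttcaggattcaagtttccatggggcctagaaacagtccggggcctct

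All 5 markers were well above background on every array. Brightness is given as the log2 of the net signal, the mean green signal of a spot minus its local background, so that 1 unit is a 2-fold step. Svs5 had the brightest probe of any named gene, with readings of 18.23, 16.82, 18.20 and 17.95 (17.80 ± 0.67, mean ± SD, n = 4 readings). The reading beside mutant mouse 2 stood well below the other 3. Pbsn read 13.95, 14.27, 15.43 and 15.11 (14.69 ± 0.70), lower beside both mutant mice than beside both null mice although the pool was the same. The brightest 100 genes as a group had the same order of arrays, as given below. Svs4 read 15.01, 14.98, 14.94 and 14.90 (14.96 ± 0.05), and its readings almost coincided. Svs2 read 14.80, 14.54, 14.83 and 14.77 (14.73 ± 0.13). Msmb read 13.32, 13.70, 13.87 and 13.76 (13.66 ± 0.24), lowest beside mutant mouse 1. Among the 12817 genes that could be ranked by their brightest probe, Svs5 was at rank 1, Svs4 at 65, Svs2 at 91, Pbsn at 97 and Msmb at 263.

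These ranks are of probe brightness and not of transcript number, because probes differ in how strongly they bind and label. Gaps between probes of 1 gene may also come from the stretch read or from probe naming, and these were not separated. Such gaps were taken over the 4967 genes that had more than 1 measured probe. Their probes differed in brightness by a median of 2.22 log2 units, and in 3778 of them (76.1%) by more than 1 unit. Superoxide dismutase Sod1 had the widest gap, 10.20 units, with 1 probe at 14.49 and another at 4.30. The dim probe is tied to Sod1 by symbol only, and the bright one by accession. The probes of the ribosomal gene Rps25 read 15.51 and 6.39, and those of Rpn1, a subunit of the oligosaccharyl transferase, ran from 15.27 down to 6.28. Hsf1, the heat shock transcription factor, owed rank 13 to 1 probe at 15.68 that only the symbol in the files ties to the gene, while its accession-matched probes read 8.97 and 6.81. The same gene could even supply a bright and a barely measured probe: Aco1, the cytosolic aconitase and iron regulatory protein, had probes at 10.11 and 3.95.

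After Svs5, the brightest probe of a named gene was one that the files name Sbp, for spermine binding protein, a secreted protein of the ventral prostate. It read 16.85, 17.07, 18.32 and 16.59 (17.21 ± 0.77), highest beside null mouse 1. Its naming is uncertain. It is tied to Sbp by symbol only, it lies on the strand opposite to the accession-matched Sbp probe, and the neighbouring gene in RefSeq is the related Sbpl. The accession-matched Sbp probe read 15.15, 15.17, 15.86 and 14.72 (15.23 ± 0.47), again highest beside null mouse 1. At rank 3 was Tgm4, the prostate transglutaminase that cross-links seminal proteins, which read 15.59, 15.79, 16.79 and 16.25 (16.11 ± 0.53). Ranks 4 to 6 were taken by Prdx6, an antioxidant peroxiredoxin (16.05 ± 0.25), Eef1a1, the elongation factor that brings tRNA to the ribosome (15.98 ± 0.23), and Rplp1, a protein of the ribosomal stalk (15.79 ± 0.53). The single brightest probe carried 0.852% of the summed brightness of all measured probes, the brightest 100 carried 17.1% and the brightest 1000 carried 54.5%. Of the 10 brightest probes 4 had no current gene name, and of the 100 brightest 16 had none.

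**Figure D1:**
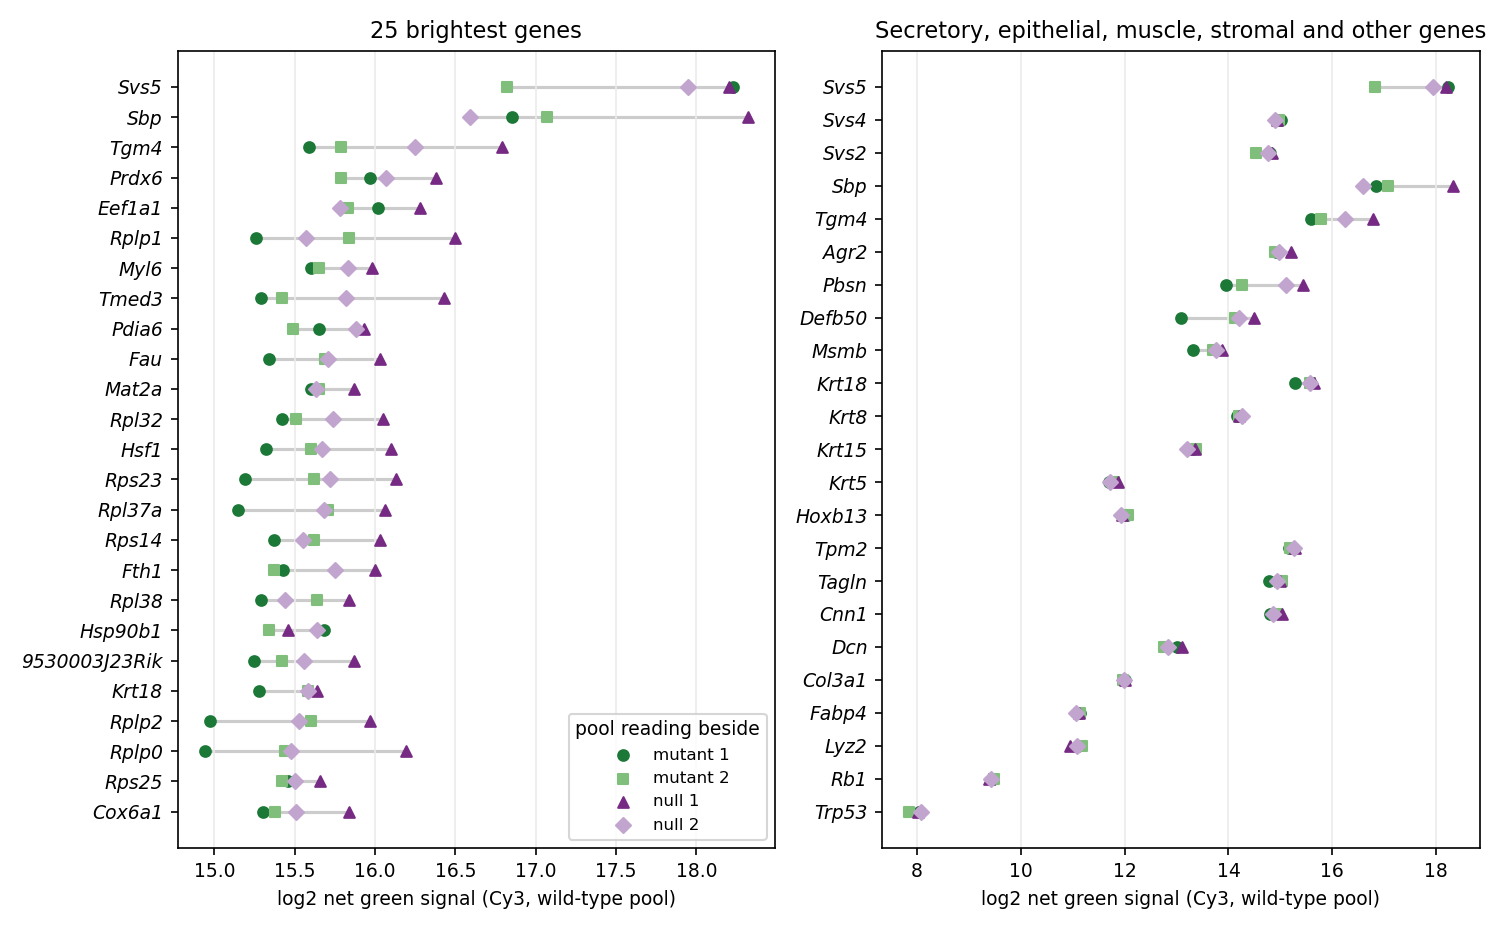
The 4 readings of the wild-type pool for the 25 brightest named genes (left) and for chosen secretory, epithelial, muscle, stromal and other genes (right), as log2 net green signal; each symbol is 1 array, named by the mouse in the other channel, and the grey bar joins the lowest and highest reading. The readings of Svs5, Sbp, Tgm4 and Pbsn spread widely, while those of Svs4, Krt8 and Col3a1 nearly coincide.

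Among the secretory genes of the prostate, 20 of 21 on the array were measured on all 4 arrays (95.2%), against 65.8% of all named genes. Their median brightness was 12.81, against 8.67 over all measured genes. Beside Sbp, Tgm4, Pbsn and Msmb, the list held Agr2, a disulfide isomerase of secretory epithelia (14.92, 14.90, 15.21 and 14.97), and Defb50, a prostate beta-defensin (13.08, 14.13, 14.50 and 14.20). Clu, the extracellular chaperone clusterin, had a mean of 13.84. Azgp1, a zinc-binding glycoprotein, had 12.80, and Pigr, the receptor that carries antibodies across epithelia, had 11.01. Acpp, prostatic acid phosphatase, was the dimmest measured member of the list at 7.27. Folh1, which encodes prostate-specific membrane antigen, was not well above background on any array, with net signals of 1.37 to 6.36 units of intensity. Of the 8 seminal vesicle genes on the array, 6 were measured and 3 stood among the brightest 100 genes. Pate4 was also bright at 13.64, whereas Svs6 read 6.99 and Ceacam10 5.43. Svs1 and Svs3a were called on no array, with net signals no higher than 6.46 and 8.19. Whether seminal vesicle tissue entered the pool cannot be told apart from expression in the prostate itself, since a bulk RNA does not show which cells a transcript came from.

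The kallikreins, secreted proteases whose human relatives include prostate-specific antigen, were largely dim in the pool. Only 6 of 21 were measured on all 4 arrays (28.6%), 4 on some arrays and 11 on none. The brightest, Klk1b24, read 5.80, 5.55, 5.50 and 5.64 (5.62 ± 0.13), and the dimmest of the 6 had a mean of 4.38. All 6 therefore lay far down the brightness range of the array, in which the first quartile of measured genes is at 6.85. These genes are close paralogs, so the probes of different Klk1b members may share transcripts.

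Genes of the androgen response and of the prostate lineage were measured nearly without exception, 18 of 19 on all 4 arrays (94.7%). That share was 65.8% over all named genes. The list had a median of 10.24, against 8.67 over all measured genes, and no member among the brightest 500 genes. Steap4 at 6.16 and Srd5a2 at 6.74 were among its dimmer members. Hoxb13, a posterior homeobox factor, had a mean of 11.99 and Foxa1, a pioneer transcription factor, 10.43. Tmprss2, an androgen-regulated membrane protease, had 11.53. Rb1 and Trp53, the tumour suppressors altered in the test mice, belong to a pool labelled wild type. The brighter Rb1 probe read 9.46, 9.48, 9.39 and 9.43 (9.44 ± 0.04), while its second probe was called on no array. Trp53 read 8.04, 7.85, 8.01 and 8.08 (7.99 ± 0.10), with a second probe at 6.08. Of the retinoblastoma, E2F and p53 group, 15 of 18 were measured, led by E2f6 (10.16), a repressive member of the E2F family. The repressors E2f7 and E2f8 and the tumour suppressor Cdkn2a were called on no array.

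The machinery that folds and exports secreted proteins was measured completely, 30 of 30 genes, and 23 of the 30 stood among the brightest 500 genes. Pdia6, a protein disulfide isomerase, read 15.65, 15.49, 15.93 and 15.88 (15.74 ± 0.20). Hsp90b1, a chaperone of the endoplasmic reticulum, had a mean of 15.53, and Rpn2, which belongs to the same transferase as Rpn1, had 15.28. The dimmest of the 30, Dnajb9, an endoplasmic reticulum co-chaperone, still had 11.41. Cytosolic ribosomal proteins held 40 of the brightest 100 places and 62 of the brightest 500, and 77 of 79 were measured (97.5%). Respiratory chain genes were measured in 88 of 93 cases (94.6%), with Cox6a1, a cytochrome oxidase subunit, at 15.51. The exceptions there included Cox4i2, Cox7b2 and Cox8b, isoforms known from lung, testis and muscle, which were called on no array. Likewise the proteasome was measured in 38 of 40 subunits, and the 2 that were called on no array were Psma8 and Psmb11, the subunits known from testis and thymus.

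Prostatic fluid is rich in polyamines, citrate and zinc, and the genes of these pathways were measured almost throughout. The share over all named genes was 65.8%. Median brightness was 10.56 for the polyamine list and 9.97 for the zinc and citrate list, against 8.67 over all measured genes. All 12 polyamine genes were measured, with S-adenosylmethionine decarboxylase Amd1 at 14.03 ± 0.09 and ornithine decarboxylase Odc1, the enzyme of the first step, at 13.31 ± 0.05. Of the zinc and citrate genes 14 of 15 were measured (93.3%). The metallothionein Mt2 read 14.91, 15.53, 15.77 and 15.69 (15.47 ± 0.39), lowest beside mutant mouse 1. Mt1 had a mean of 14.23 and citrate synthase Cs 13.03. The zinc transporter Slc30a2 had 11.92, and Slc39a2 was called on 2 of the 4 arrays. The dimmest measured members were Sat2 of the polyamine list at 7.93 and Slc30a1 of the zinc and citrate list at 7.97.

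Markers of several cell types were read side by side. Luminal keratins were bright: Krt18 had a mean of 15.52 ± 0.16, and Krt8 read 14.16, 14.21, 14.20 and 14.26 (14.21 ± 0.04). In all, 19 of 20 luminal genes were measured, and the mucin Muc1 was called on no array. Of the basal genes 15 of 18 were measured, with Krt15 at 13.32, Krt5 at 11.77, Krt14 at 10.07 and the basal regulator Trp63 at 9.54. Desmosomal cadherins of stratified skin, Dsc3 and Dsg3, and the keratin Krt6a were called on no array. Smooth muscle was measured in 20 of 20 genes, and 5 were among the brightest 100. Tpm2, a tropomyosin, read 15.17, 15.18, 15.28 and 15.27 (15.23 ± 0.06), Tagln had a mean of 14.94, Cnn1, calponin, 14.91, and the smooth muscle myosin Myh11 14.03. Fibroblast and matrix genes were measured in 24 of 24 cases with a median of 8.99, led by decorin, Dcn (12.93), and the matrix Gla protein, Mgp (12.57). All 17 endothelial genes were measured, with a median of 7.27 and Emcn, endomucin, highest at 10.44.

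Other cell types gave sets with medians below the 8.67 of all measured genes. The share measured was above the 65.8% of all named genes for macrophage (89.5%), adipocyte (82.4%), neuroendocrine (78.6%) and nerve genes (75%). It was below that share for lymphocyte (44.4%) and erythroid genes (37.5%). Macrophage and myeloid genes were measured in 17 of 19 cases, with Lyz2, a lysozyme, at 11.08 and the complement component C1qa at 7.92. Of the T and B lymphocyte genes only 8 of 18 were measured, and Cd4, Cd8a, Cd79a and Pax5 were called on no array. A probe named Cd8b1, for a chain of the CD8 co-receptor, led that list at 8.87 ± 0.23, lowest beside mutant mouse 1 (8.54). It was the only measured 1 of the 2 Cd8b1 probes and is mapped to chromosome 5. Whether it reads Cd8b1 was not checked. Adipocyte genes were measured in 14 of 17 cases, with Fabp4, a fatty acid binding protein, at 11.11, while leptin and the brown fat gene Ucp1 were not called on any array. Among nerve genes 9 of 12 were measured, including Mbp, a myelin protein, at 11.11, and Gfap and L1cam were called on no array. Neuroendocrine genes were measured in 11 of 14 cases and were dim as a set, with chromogranins Chgb at 8.99 and Chga at 7.48 and synaptophysin, Syp, at 5.77. Haemoglobin Hba-a1, a marker of blood, had a mean of 11.20.

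Genes of organs next to the prostate or far from it served as a check for foreign tissue. Of the epididymis genes 3 of 16 were measured (18.8%), none brighter than 6.15, and 12 were called on no array. Germ cell genes were measured in 3 of 20 cases; Odf2 read 9.81, and it is also known as a centrosomal protein outside the testis, whereas the protamine Prm1 had a mean of 5.31. Urothelial genes were measured in 5 of 8 cases, with the uroplakins Upk1a at 8.91 and Upk1b at 8.71, while Upk3a and Upk3b were called on no array. Gata3, a factor of urothelium and other epithelia, read 13.83, 13.78, 13.73 and 13.86 (13.80 ± 0.06). Liver genes were measured in 4 of 15 cases with a highest mean of 6.42, and albumin, Alb, was called on no array. The counts were 2 of 12 for the kidney tubule and 2 of 14 for the retina. Exocrine pancreas genes were measured in 4 of 11 cases (36.4%), with Rnase1, a secreted ribonuclease, at 12.80. Central neuron genes were measured in 9 of 15 cases (60.0%), the brightest being Rbfox3 at 9.43 and Gad2 at 9.26. Skeletal muscle stood near the share over all genes, with 13 of 20 measured (65.0%). Acta1, skeletal actin, at 12.82 and Tnnc2, a fast troponin C, at 12.33 led that list, the other 11 measured genes reached no more than 7.61, and Pvalb, Ttn and Neb were called on no array. Cardiac actin, Actc1, had a mean of 12.05, while Myh6 and Myl7 were called on no array. Of 6 Y-linked genes 4 were measured, Eif2s3y brightest at 10.26, and Xist, the RNA of the inactive X chromosome in females, was called on none of the 4 arrays by any of its 4 probes.

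**Figure D2:**
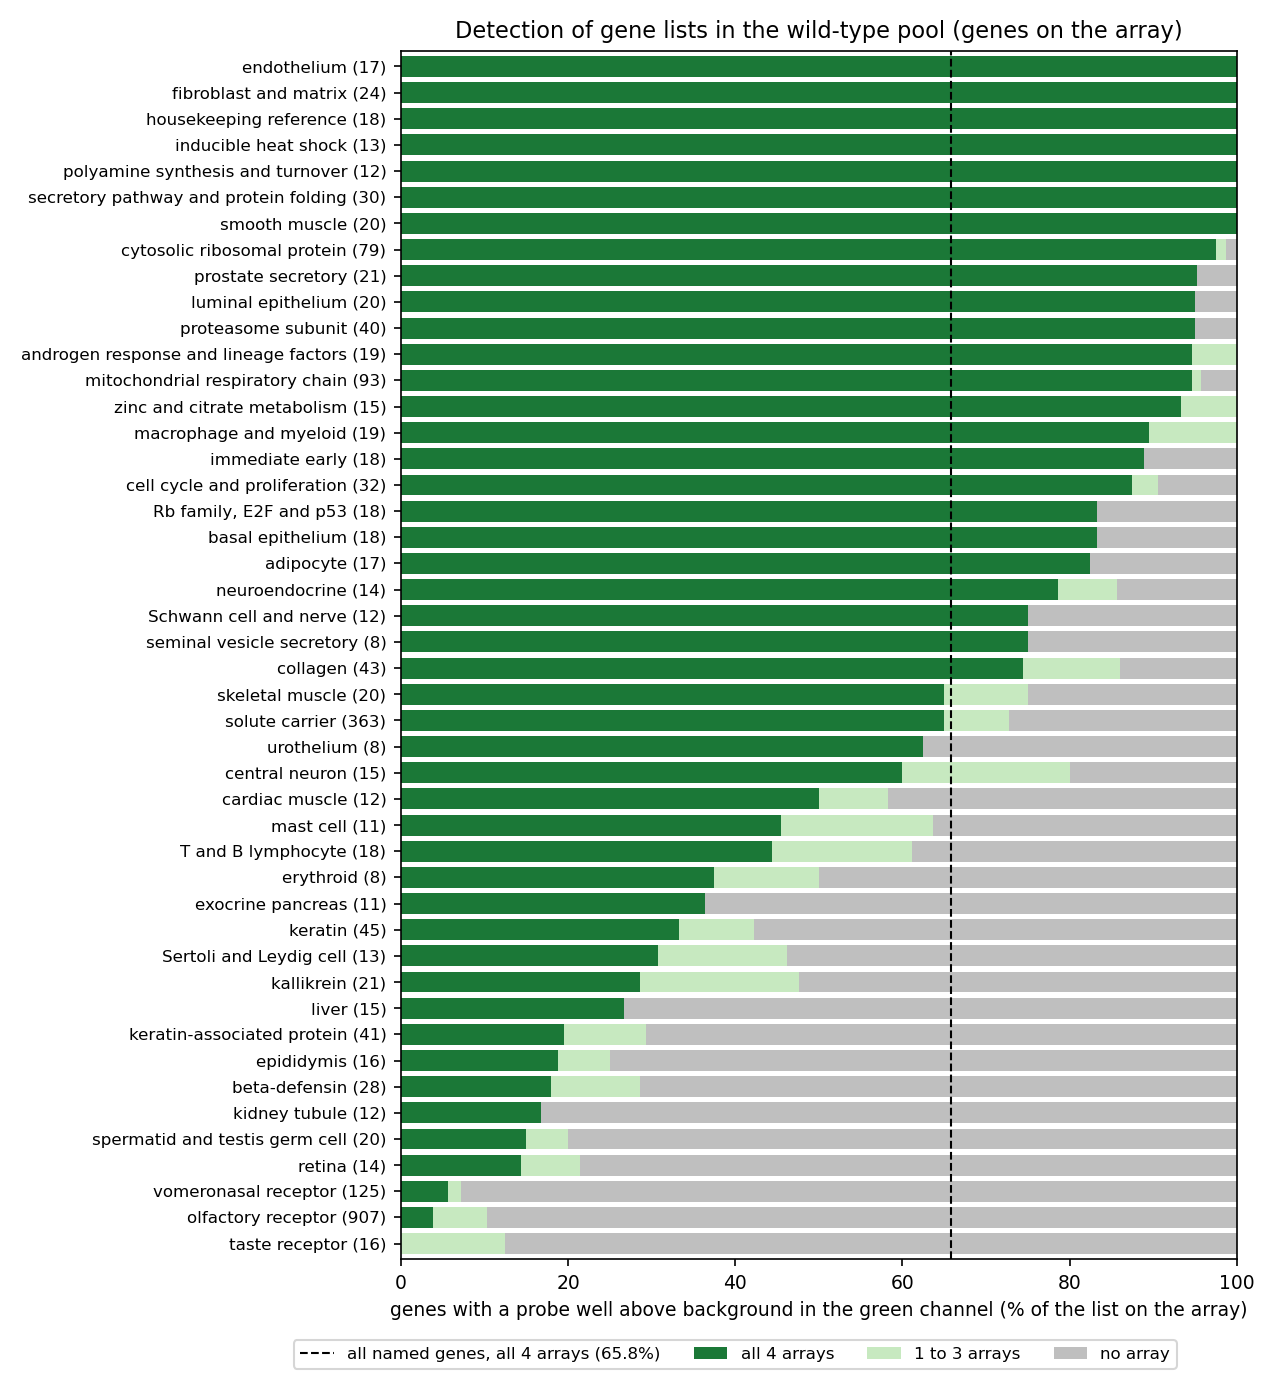
Share of the genes of each list, among those on the array (number in brackets), with a probe well above background in the pool on all 4 arrays, on 1 to 3 arrays or on no array; the dashed line marks the 65.8% of all named genes. Smooth muscle, fibroblast, endothelial and secretory pathway lists reach 100%, and chemosensory receptors, retina and germ cell lists lie at the bottom.

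Large gene families showed which parts of the genome the pool left unread. Of 907 olfactory receptor genes, which serve the nose, 814 (89.7%) were called on no array and 35 (3.86%) on all 4. Vomeronasal receptors gave 116 of 125 on no array (92.8%), and no taste receptor of 16 was called on all 4. Most measured olfactory receptors were dim, with a median of 4.92, but Olfr656 read 10.68, 10.41, 10.29 and 10.65 (10.51 ± 0.19) and Olfr571 had a mean of 9.66. Beta-defensins were measured in 5 of 28 cases. Defb50 and Defb1, an epithelial defensin, at 12.79 stood far above the other 3, which had means of 6.62 or less. Keratins were measured in 15 of 45 cases, and the hair keratins Krt31, Krt32 and Krt34 were called on no array. The hair protein family Krtap was measured in 8 of 41 cases; Krtap4-6 had a mean of 13.82 and the other 7 had means of 8.07 or less. Solute carriers, at 236 of 363 (65.0%), matched the share over all genes. Probes designed on RefSeq mRNAs were measured in 65.7% of cases, and those designed on RIKEN cDNA clones in 26.8%.

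Proliferation genes were measured but not bright. Of 32 cell cycle genes 28 were measured on all 4 arrays (87.5%), against 65.8% of all named genes. Their median was 7.78, against 8.67 over all measured genes. Pcna, the replication clamp, led with 10.44, 10.46, 10.41 and 10.39 (10.42 ± 0.03). Mki67, a proliferation marker, had a mean of 7.99, the mitotic cyclin Ccnb1 4.78 and the topoisomerase Top2a 5.69, and Aurkb, Ccne2 and Kif11 were called on no array. Immediate early genes, which respond within minutes to handling of tissue, were measured in 16 of 18 cases (88.9%), with a median of 9.25. Jund had a mean of 14.27, Junb 11.55 and Fos 5.85, and Fosb was called on no array. Of the heat shock genes 13 of 13 on the array were measured (100%), with a median of 11.53. The chaperone Hsp90aa1 read 13.81, 13.76, 12.97 and 13.64 (13.55 ± 0.39), lowest beside null mouse 1, and Hspa8 read 14.51, 14.77, 14.27 and 14.63 (14.55 ± 0.21), lowest there as well. Hsp90ab1, a close relative of Hsp90aa1, read 14.52, 14.51, 14.65 and 14.60, highest beside null mouse 1, so the list did not lean one way.

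The start sites of the bright secretory genes were inspected in RefSeq sequence of build GRCm38.p6, which holds a promoter window for 27025 genes. The windows ran from 250 bases before the annotated start to 50 after it, and were found for 19 of the 26 measured genes of the seminal vesicle and prostate secretory lists. The letters TATAAA, searched on the strand of the gene, were present in 6 of those 19 windows (31.6%) and in 9.77% of all windows, and in 5 of 56 windows of measured ribosomal protein genes (8.93%). The letters AGAACA, the hexamer of the steroid receptor consensus, searched on both strands, were present in 10 of the 19 (52.6%), in 21.3% of all windows and in 16.1% of the ribosomal ones. CCAAT, on both strands, gave 52.6%, 41.1% and 32.1%. A match is only a match of letters. The 6 windows with the first set of letters were those of Svs2, Svs4, Svs5, Svs6, Tgm4 and Pbsn. The Svs genes among them lie close together on chromosome 2, and Svs5 and Svs6 have near-copy windows, so the 6 are not all independent. The window of Svs3a, which was called on no array, held both the first and the second set. In the 77 windows found for the brightest 100 genes, the shares were 13%, 18.2% and 48.1%, in the order given above. No excess was tested. Svs5 and Svs6 are neighbours on chromosome 2, and their windows are printed because they are near copies (238 of the 250 bases before the start occur in the same order in both), while the Svs5 probe read 17.80 and the Svs6 probe 6.99. Those are different probes, so the values are given side by side and not as a ratio. Tgm4 and Pbsn are printed as the bright secretory genes of the prostate itself, with TATAAA in capitals. The windows with their 50 bases past the start span chr2:164332515-164332814 (Svs5, plus strand), chr2:164316501-164316800 (Svs6, plus), chr9:123034491-123034790 (Tgm4, plus) and chrX:77853451-77853750 (Pbsn, minus), and the bases before the start are shown. Counted from the start, the capitals begin at -28 in Svs5, -32 in Svs6, -30 in Tgm4 and -59 in Pbsn. In Svs2 the nearest match began at -205, and the windows of Sbp held none.
Svs5: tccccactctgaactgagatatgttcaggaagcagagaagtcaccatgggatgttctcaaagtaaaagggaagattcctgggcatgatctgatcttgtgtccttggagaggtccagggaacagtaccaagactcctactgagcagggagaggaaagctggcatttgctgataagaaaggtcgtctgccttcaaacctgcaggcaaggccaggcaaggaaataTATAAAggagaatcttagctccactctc
Svs6: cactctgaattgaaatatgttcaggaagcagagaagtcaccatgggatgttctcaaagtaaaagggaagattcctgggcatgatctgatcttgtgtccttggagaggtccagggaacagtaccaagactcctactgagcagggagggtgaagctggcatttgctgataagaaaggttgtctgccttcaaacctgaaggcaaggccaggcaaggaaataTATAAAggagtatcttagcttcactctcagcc
Tgm4: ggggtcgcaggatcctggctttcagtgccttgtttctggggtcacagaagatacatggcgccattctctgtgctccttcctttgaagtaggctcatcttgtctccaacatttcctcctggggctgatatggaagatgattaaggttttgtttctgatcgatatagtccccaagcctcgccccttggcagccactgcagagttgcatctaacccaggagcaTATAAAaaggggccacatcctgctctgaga
Pbsn: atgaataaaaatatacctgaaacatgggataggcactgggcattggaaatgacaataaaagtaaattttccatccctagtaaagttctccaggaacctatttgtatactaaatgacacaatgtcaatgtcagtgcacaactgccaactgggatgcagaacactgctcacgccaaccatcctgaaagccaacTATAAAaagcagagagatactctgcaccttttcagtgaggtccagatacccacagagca

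The 4 arrays read the pool with similar sensitivity. In green, 22618, 23072, 22325 and 23069 probes were well above background, and the median net signal of the measured probes was 227, 235, 228 and 228. Between pairs of arrays the correlation of log2 green signal across measured probes was 0.9958 to 0.9975, whereas across the red channels, which held different mice, it was 0.9367 to 0.9866. The same probes share both channels and the same background, so these correlations describe the arrays. Measured probes had a median net signal of 229.5 units and those called on no array 6.18. At the edge of the rule, the dimmest measured probes belonged to Aco1 (3.95), Hjurp (3.96) and Pitpnm2 (3.98), while a probe of Exosc1, called on 3 arrays, had a mean of 5.01, and one of Polh, called on none, had 4.45. The called and uncalled probes thus overlap between about those values. No green spot was saturated.

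The SD over the 4 readings of a measured probe had a median of 0.083 log2 units, or 0.079 after the median of each array was subtracted. For 89.7% of the probes it was under 0.2, and for 94 probes (0.435%) it exceeded 0.5. It was larger at both ends of the brightness range than in the middle. The median SD was 0.162 for means under 6, fell to 0.052 between 10 and 12, was 0.133 between 14 and 16, and reached 0.582 for the 8 probes above 16. Of the 94 probes with an SD over 0.5, the reading farthest from the rest was that beside null mouse 1 in 43 cases, and in 39 of these it was above the others. Among named genes of mean 7 or more, the widest spreads were those of Sbp (0.77), Pbsn (0.70), Svs5 (0.69), Defb50 (0.61) and the ribosomal gene Rps12 (0.57), all after subtraction of array medians.

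**Figure D3:**
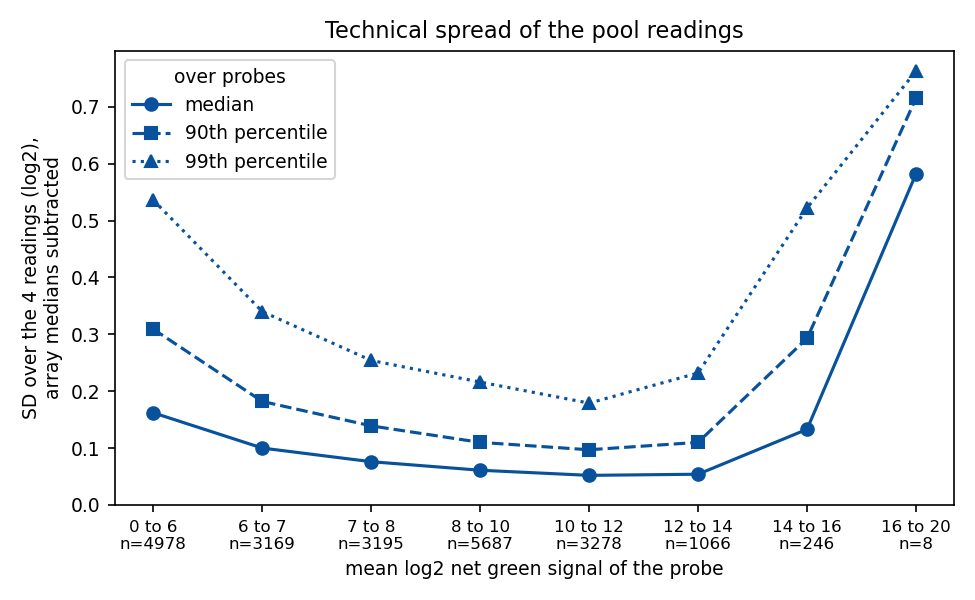
Median, 90th percentile and 99th percentile, over probes, of the SD of the 4 pool readings (log2, array medians subtracted), in classes of mean log2 net green signal with the number of probes. The median falls from 0.162 in the dimmest class to 0.052 between 10 and 12 and rises to 0.582 in the brightest.

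The spread at the bright end had a direction. Of the 100 brightest genes, 89 had their highest reading beside null mouse 1 after subtraction of array medians, and 52 had their lowest beside mutant mouse 1 and 39 beside mutant mouse 2. Over all 12817 ranked genes, the share that was highest beside null mouse 1 was 29.0%. The median deviation of the 100 genes from their own mean was 0.262 beside null mouse 1, 0.009 beside null mouse 2, -0.109 beside mutant mouse 2 and -0.135 beside mutant mouse 1. Rplp0, a stalk protein of the ribosome, shows it: its readings were 14.94, 15.44, 16.19 and 15.48 (15.51 ± 0.52). Among the 76 ribosomal protein genes that could be ranked, 64 were highest beside null mouse 1.

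Above a brightness of 12 the drift grew from class to class. Beside null mouse 1, the median deviation was 0.039 for probes of mean 4 to 6, 0.009 from 6 to 8, -0.002 from 8 to 10, -0.004 from 10 to 12, 0.014 from 12 to 13, 0.043 from 13 to 13.5, 0.076 from 13.5 to 14, 0.106 from 14 to 14.5, 0.155 from 14.5 to 15, 0.291 from 15 to 15.5 and 0.557 above 16. For the brightest spots the files use a second, weaker scan that is scaled up. The dimmest probe that was scaled up on any array had a mean of 13.98. The part of the second scan in the drift was not tested. A spike-in control, an E1A transcript of mean 14.52 that was scaled up in 26 to 29 of its 32 spots on each array, read 14.49, 14.59, 14.53 and 14.49 (SD 0.029 after subtraction of array medians). For probes of mean 14 to 16, the median SD was 0.150 in the 211 that were scaled up on some array and 0.072 in the 35 that were not. Those 35 are also the dimmer ones, since no probe above 14.21 escaped scaling.

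**Figure D4:**
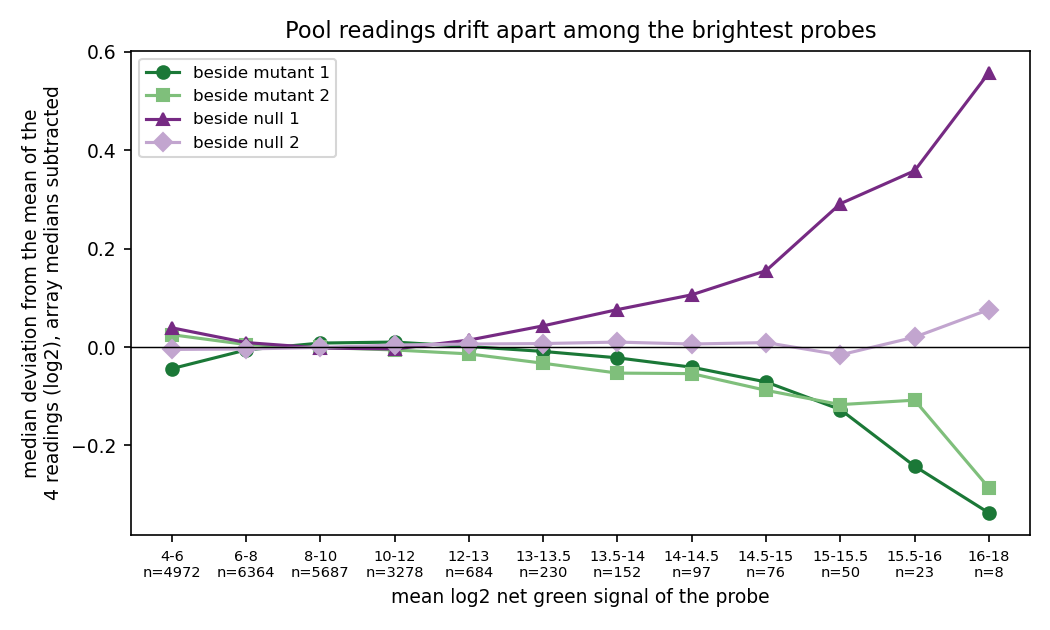
Median deviation of each pool reading from the mean of the 4 readings of the probe (log2, array medians subtracted), in classes of mean log2 net green signal with the number of probes. Below a brightness of 13 the medians lie between -0.044 and 0.039, and above it they part, to 0.557 beside null mouse 1 and -0.337 beside mutant mouse 1 in the brightest class.

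The red channel of these arrays differed much more than the green one, and how it moved with the drift depended on the scale. Over the measured probes, the median red log2 signal was 9.78, 9.68, 7.82 and 9.17, with null mouse 1 far below the rest. As deposited, 97 of the same 100 genes had their lowest red reading in null mouse 1, with a median red deviation of -0.932 there. After the red median of each array was subtracted, 74 of the 100 had their highest red reading in null mouse 1, with a median red deviation of 0.356, and green and red then leaned the same way. The direction for the 100 genes as a group thus turns with the scaling of the red channel. The part of the red channel in the drift was not tested, and it cannot be told apart here from other differences between these 4 arrays.

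Green and red readings of the bright secretory probes were set side by side, and the picture was mixed. Red values are given after subtraction of the array median. Svs5 was at 6.07, 9.11, 4.73 and 6.70 in red, highest in mutant mouse 2, and its green reading of the pool was lowest on that array. Sbp was at 5.34 in red in null mouse 1 and between 8.35 and 8.89 in the other mice, and its green reading was highest beside null mouse 1. Defb50 was at 8.14, 6.92, 5.05 and 6.84 in red, in the reverse order of its green readings. Msmb was at 7.62, 6.57, 2.97 and 5.87 in red, again in the reverse order of its green readings of 13.32, 13.70, 13.87 and 13.76. Svs2 was highest in red in mutant mouse 2, at 5.95, where its green reading of 14.54 was the lowest. After subtraction, Tgm4 was highest in both channels on the array of null mouse 1, at 9.44 in red and 16.79 in green. As deposited, its red readings of 18.31, 17.81, 17.26 and 17.71 were in the reverse order of the green ones. For Pbsn too the order depended on the scaling. As deposited its red readings of 17.30, 17.10, 16.17 and 16.46 mirrored the green ones, but after subtraction null mouse 1 was the highest in red at 8.35. Svs4 went from 1.82 to 4.64 in red, yet its green readings stayed between 14.90 and 15.01. Over the 12 probes of mean 14 to 16 whose centred red readings ranged over more than 2 units, a class formed after the values were seen, 10 had a lower green reading where red was highest than where it was lowest. In the 246 probes of that brightness as a whole this held for 75 (30.5%). With the same red range, it held for 26 of 39 probes of mean 12 to 14 (66.7%). In the dimmer classes with that red range it held for 24.9% to 39.7%, such as 67 of 251 (26.7%) for means of 8 to 10. Across the 20484 measured probes that were also well above background in red on all 4 arrays, the centred green and red deviations of an array correlated at 0.185 to 0.241. The class of 12 probes is small and was selected, so its count is given as a description only.

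The 10 widest spreads also held 3 genes that are neither secreted nor ribosomal. Dzip3, a ubiquitin ligase, read 9.34, 9.30, 8.17 and 9.17, with the reading beside null mouse 1 low. Ppp1cb, a catalytic subunit of protein phosphatase, read 13.10, 12.18, 13.27 and 13.21, low beside mutant mouse 2. Lars2, the mitochondrial leucyl-tRNA synthetase, read 9.04, 8.08, 7.85 and 8.19, high beside mutant mouse 1. In red, after subtraction of the array median, Lars2 was also highest in mutant mouse 1, at 4.95 against 1.24 to 1.86 in the others, and Dzip3 was also lowest in null mouse 1, at 0.56 against 1.21 to 1.71. Ppp1cb was also lowest in mutant mouse 2, at 4.96 against 5.86 to 6.46. For each of these 3 genes the outlying array was the same in green and, after that subtraction, in red. For Ppp1cb this depended on the scaling. As deposited, its red readings were 15.64, 14.64, 14.28 and 15.24, lowest in null mouse 1.

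Spots of the same probe differed more within an array than the same spot did between arrays. For the 164 measured probes printed as 10 spots, the SD over the spots of a probe on 1 array had a median of 0.233, against 0.076 for the same single spot across the 4 arrays and 0.047 for the means of 10 spots after subtraction of array medians. The deviations of the 10 spots repeated from array to array: in the 98 probes with enough usable spots, their correlation between arrays had a median of 0.946. With the slide cut into 10 row bands, spots in band 1 were below the mean of their probe by a median of 0.256 to 0.350 on the 4 arrays. In bands 5 and 6 they were above it by 0.161 to 0.266. The layout is the same on every array, so a shift of this kind is shared by the 4 readings of a probe and enters its brightness, while the SD between readings does not show it.

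**Figure D5:**
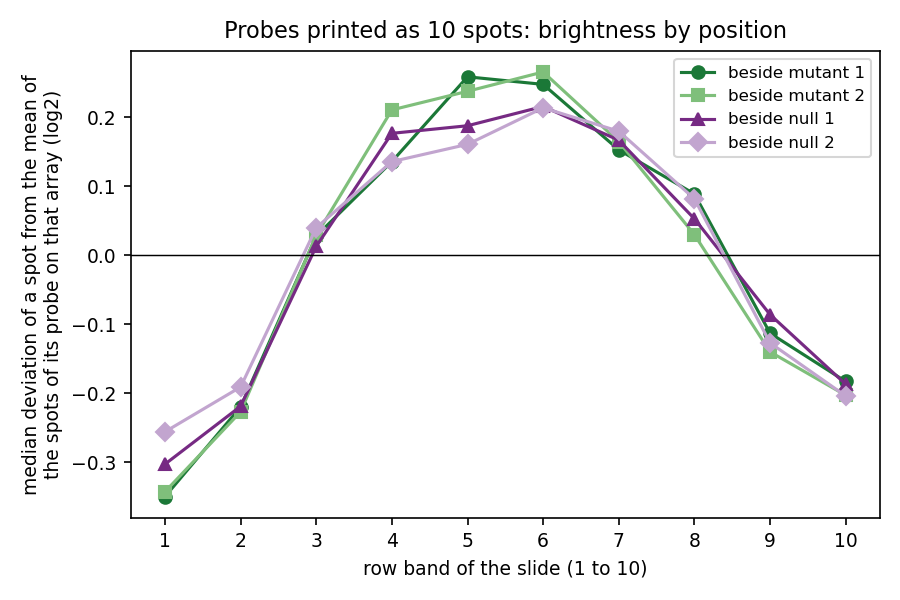
Median deviation of a green spot from the mean of all spots of its probe on that array (log2), for probes printed as 10 spots, by row band of the slide from 1 to 10, with 1 line per array. All 4 lines run from about -0.3 in band 1 to above 0.2 near the middle and back to about -0.2 in band 10.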

How the data were processed

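The 4 deposited scanner files hold, per the file headers, the spot intensity of both channels from Agilent Feature Extraction 9.5.1.1 (the submitters' processing notes name 8.5), with background estimates and flags. The Cy3 intensity values are deposited before normalization in the columns used here. RNA was extracted and labelled as cRNA, per the labels' protocols. Probe positions are those of mm7 in the files. Net signal was the mean minus the local median background, and its log2 was used without scaling between arrays unless stated. A probe counted on an array when at least 1 in 2 of its spots had the flag for well above background (a multiplier of 13, per the file headers). Outlier-flagged spots were left out of values, which removed 44 of the 21671 measured probes from the ranks. Spots of a probe were averaged, and a gene took its brightest measured probe.

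Probes were named through accessions (23075), current symbols (6582) or older symbols (3077) of RefSeq GRCm38.p6, and 8440 kept the name in the file. The members and gene lists were chosen with earlier results of these data known. Genes are named by a fixed rule: the 5 markers, Rb1, Trp53 and a few other fixed genes, the 40 brightest genes, the 3 brightest and up to 3 uncalled genes of each list, the 10 of widest spread, the 5 with the most discordant probes and those at the edge of the rule, of which some are not reported here. Other list members named in the text, the 2 lists for Y-linked genes and Xist, and the classes by red range were picked after their values were seen. No test between groups was run, since the 4 readings are of 1 pool, and their number limits the precision. Dixon's criterion was applied to the readings of 52 genes. Scripts were tested on simulated data. Tools were Python 3.11.15, numpy 2.4.6, pandas 2.3.3, R 4.3.3 and limma 3.58.1, the last for the normexp alternative. Alternatives were another flag, another signal column, normexp with offset 50, quantile normalization, the mean over probes, 3 of 4 arrays, and leaving out each array.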

Additional observations from a re-analysis of the deposited data

Results flagged for a closer look

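Among the readings of the named genes, 3 had 1 of the 4 far from the rest by Dixon's criterion, which flags about 1 group in 20 by chance. Values are log2 net signal minus the median of the array. Mat2a, a methionine adenosyltransferase, read 8.04 beside null mouse 1 and 7.77 to 7.80 on the other arrays. It is 1 of the 100 brightest genes, of which 89 had their highest reading beside null mouse 1, so its direction is not particular to it. Dzip3 read 0.34 beside null mouse 1 and 1.33 to 1.52 on the others. Ppp1cb read 4.30 beside mutant mouse 2 and 5.28 to 5.43 on the others. In all, 52 genes were examined in this way. They include the 10 genes of widest spread over the same readings, Dzip3 and Ppp1cb among them, so that rate does not apply to those 2.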

How the results depend on the processing

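With the more lenient flag for a significantly positive signal, 8561 probes were called on no array in place of 17001, while the count on all 4 arrays, 26340, stayed within 1.5 times of 21671. With the software's own processed signal, which removes trends over the slide, the median SD across arrays was 0.138 in place of 0.083, and the median SD within an array was 0.082 in place of 0.233. The processed signal also has another level on each array. Rb1, for example, read 11.25, 11.19, 10.96 and 11.02 in it, in place of 9.46, 9.48, 9.39 and 9.43. The part of such shifts in the larger SD across arrays was not tested. Under the processed signal, 98 of the 100 brightest genes were highest beside null mouse 1. The other alternatives for the counts of probes, the spreads, the list totals and the brightest 100 genes stayed within 1.5 times of the main values. Leaving out each array in turn gave 21729 to 22038 measured probes and a median SD of 0.075 to 0.082. The brightest 100 genes shared 88 with the ranking by processed signal and 70 with the ranking by the mean over probes. Of 288 list counts under alternatives 278 stayed within that range. The mean brightness of a named gene moved by more than 1 SD over readings in 94 of 168 cases with the processed signal and in 139 of 168 with normexp. No paired analysis was possible because the results come from no test. Below a mean of about 5 the called and uncalled probes overlap, so a probe called on no array shows only that its signal did not pass this flag. It does not show that no signal was present.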

Other observations

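Some probes were called in the red channel of the test mice and not in the green channel of the pool. Of the probes called on no green array, 256 were well above background in red on all 4 arrays, and 13 probes were called on all 4 green arrays and no red one. Of the 21671 measured probes, 20527 were also called in red on all 4. In red 26168, 25549, 22183 and 25047 probes were well above background, with null mouse 1 lowest. The dyes differ between the channels, so these counts are not a comparison of genotypes.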
